A study of Mus musculus with 6 samples.

Results

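The genes described here are 45 genes of the surface ectoderm and of epithelial junctions, measured in heads of mouse embryos with and without the H3K4 demethylase Jarid1b. The members are a list of gene symbols with no threshold on measured values, drawn up with earlier results of these data known, and each was taken as the probe set whose platform annotation gives that gene symbol and no other. All 45 were found, each with 1 probe set, among 21789 probe sets that stand for 19938 genes. RNA came from heads of C57BL/6 embryos at embryonic day 8.5. There were 3 pools of Jarid1b heterozygotes and 3 pools of Jarid1b knockouts, with 4 heads in each pool, hybridized to Affymetrix mouse Gene ST arrays. The knockout is constitutive, made by crossing mice with a loxP-flanked Jarid1b exon to a Cmv-cre line and then intercrossing the heterozygotes. The heterozygous controls therefore also carry a deleted Jarid1b allele beside an intact one, and no wild-type pool was analysed here. The labels do not say which litters or embryos entered a pool, so the p-values here speak only for the spread among these 6 pools.

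The surface ectoderm is the epithelial sheet that lies beside the neural plate in the early head and later gives rise to the epidermis and, through placodes, to the lens, the nose and the inner ear. Its cells are joined by adherens junctions built on E-cadherin, by tight junctions that seal the sheet near its apical side, and by desmosomes that link the keratin filaments of neighboring cells. Grainyhead-like factors, Trp63 and Ovol factors are known regulators of this program, and loss of Grhl2 or Grhl3 is known to disturb neural tube closure. Many of these genes are shared with other epithelia of the region, such as the gut endoderm and the visceral endoderm.

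Expression values were RMA intensities, of which log2 was taken. Changes are given as the log2 fold change (log2FC), knockout minus heterozygote, from limma, with its standard error (SE) or 95% confidence interval (CI) and with Benjamini-Hochberg adjusted p-values taken over all 21789 probe sets. Jarid1b, listed as Kdm5b, measured 9.15 ± 0.03 (SD, n = 3) on the log2 scale in heterozygotes against 7.60 ± 0.12 (SD, n = 3) in knockouts, and it was the only probe set of the table to pass an adjusted p under 0.05 (log2FC -1.55, limma adjusted p = 6.29e-04). None of the 45 members passed, against 0.00459% of all probe sets, and the smallest adjusted p among them was 0.389. The members were therefore read by their values per pool and by counts at an unadjusted p under 0.05, which are descriptions and not calls. The standard error of a member's log2FC had a median of 0.071.

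Upstream sequences were searched for a hexamer, the E-box CACCTG, that is common in promoters of this group. The table of RefSeq promoters, on build GRCm38.p6, held 26 of the 45 members. For the 4 of these with the smallest p, the 250 bases before the transcription start are printed on the strand of the gene. Capitals mark the E-box, read on both strands (so that CAGGTG also counts), which is bound by the epithelial repressors of the Snai and Zeb families. The probe sets of Spint2 and Ap1m2 were lower in knockout pools, those of Ocln and Krt14 were higher. For Ocln, which has 2 promoters in the table, the window of the start that lies farther upstream is shown.
Ocln, chr13:100552719-100552968, minus strand: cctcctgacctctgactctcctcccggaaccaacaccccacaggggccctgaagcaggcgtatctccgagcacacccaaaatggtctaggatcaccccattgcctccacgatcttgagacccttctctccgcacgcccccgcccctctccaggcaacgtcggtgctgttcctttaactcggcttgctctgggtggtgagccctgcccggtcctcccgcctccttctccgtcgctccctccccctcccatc
Spint2, chr7:29281978-29282227, minus strand: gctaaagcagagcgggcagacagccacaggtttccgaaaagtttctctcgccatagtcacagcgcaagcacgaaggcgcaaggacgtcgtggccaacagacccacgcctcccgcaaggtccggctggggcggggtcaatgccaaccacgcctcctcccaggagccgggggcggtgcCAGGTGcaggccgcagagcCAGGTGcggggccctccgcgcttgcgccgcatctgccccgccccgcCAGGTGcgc
Krt14, chr11:100206031-100206280, minus strand: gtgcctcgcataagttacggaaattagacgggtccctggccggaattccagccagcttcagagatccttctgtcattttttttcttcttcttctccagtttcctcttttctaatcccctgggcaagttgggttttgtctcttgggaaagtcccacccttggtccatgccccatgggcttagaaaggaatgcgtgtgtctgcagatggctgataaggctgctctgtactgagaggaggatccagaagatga
Ap1m2, chr9:21312334-21312583, minus strand: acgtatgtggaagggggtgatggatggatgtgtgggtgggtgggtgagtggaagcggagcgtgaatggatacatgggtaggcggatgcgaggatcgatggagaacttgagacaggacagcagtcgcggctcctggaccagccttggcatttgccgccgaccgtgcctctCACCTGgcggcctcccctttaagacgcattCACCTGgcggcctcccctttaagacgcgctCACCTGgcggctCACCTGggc

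The E-box occurred 3 times in the Spint2 window and 4 times in that of Ap1m2, and it was absent from the windows printed for Ocln and Krt14. Over the group, it was present in 20 of 32 promoters of members, or 62.5%, against 17.2% of all 32851 promoters of the same length. Among 18489 promoters of measured protein-coding genes the share was 16.9%. Member promoters are rich in G and C, with a median of 60.2% against 52.4% for all promoters. Among 4975 promoters of measured protein-coding genes with a G and C content between 56% and 64.3%, which holds the middle of the members' range, 19.5% had the hexamer. Counted by gene, 18 of 26 members had it in a listed promoter. They were 4 of 6 members that lay lower at an unadjusted p under 0.05 (Ap1m2, F11r, Krt18 and Spint2, but not Jup or Spint1), 1 of 2 that lay higher (Ocln, in the promoter not printed) and 13 of 18 others. Members with and without an unadjusted p under 0.05 both carried it. A motif of the Grainyhead-like factors, AACCGGTT, was in no member promoter and in 0.116% of all promoters. With its middle C left open (AACNGGTT, both strands, which includes the former), it was in 1 member promoter, that of Rab25, and in 1.79% of all promoters. A match of letters is a description and not evidence of binding.

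The members lay lower in knockout pools more often than the probe sets of the array did. At an unadjusted p under 0.05, 10 of 45 members (22.2%) were lower, against 4.66% of all probe sets, and 3 of 45 (6.67%) were higher, against 5.97%. The log2FC was negative for 29 members, or 64.4%, against 50.3% of all probe sets. Every knockout pool lay below every heterozygote pool for 12 members (26.7%, against 9.03% of all probe sets), and above every heterozygote pool for 4 (8.89%, against 8.03%). The median log2FC was -0.066 for the members and -0.00072 for all probe sets. The log2FCs ran from -0.24 to 0.24, so that no member differed by more than 1.18-fold. The count of 10 lower members was 3 without heterozygote replicate 2, 3 without heterozygote replicate 3 and 3 without knockout replicate 3, where 3.05%, 2.84% and 3.58% of all probe sets were lower. It was 5 after quantile normalization and 5 after cyclic loess, where 4.13% and 4.26% of all probe sets were lower. Esrp1, Krt18, F11r, Spint2 and Ap1m2 were left in both. Cdh1, Cdh3, Jup, Prss8 and Spint1 no longer had an unadjusted p under 0.05 after either. The 10 members kept a negative log2FC in every one of these settings.

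**Figure D1:**
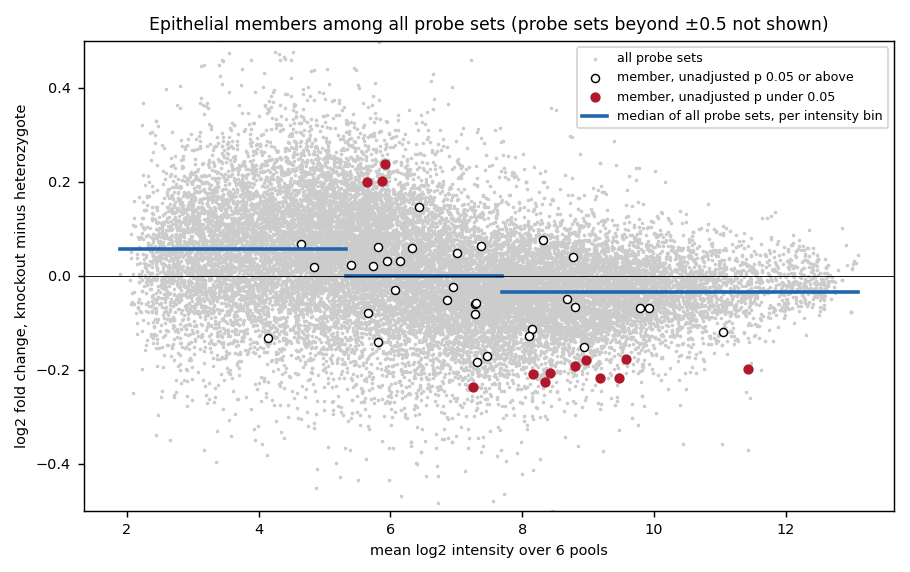
Log2 fold change (knockout minus heterozygote) against the mean log2 intensity over 6 pools, for all probe sets (gray points) and the 45 members (circles, filled red at an unadjusted p under 0.05), with blue lines marking the median of all probe sets in each bin of intensity. The members at high intensity lie mostly below the blue line at -0.035, and the 3 red members above 0 lie between 5.64 and 5.92 on the intensity axis.

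The lower values were concentrated in members with bright probe sets, and the array as a whole had a tilt in the same direction. All probe sets were divided by their mean log2 intensity into 3 bins of 7263 each. Over all probe sets, the median log2FC was 0.056 in the dim bin, -0.00037 in the middle bin and -0.035 in the bright bin, which begins at a log2 intensity of 7.70. Of the members, 19 were in the bright bin, 23 in the middle bin and 3 in the dim bin. In the bright bin, 17 of 19 members had a negative log2FC (89.5%, against 70.2% of all probe sets there). Their median was -0.15, and 9 of 19 were lower at an unadjusted p under 0.05 (47.4%, against 6.71%), while none was higher (against 0.716%). For 11 of the 19 (57.9%, against 16.8%), every knockout pool lay below every heterozygote pool. In the middle bin, the median of the 23 members was 0.021, with 1 member lower and 3 higher at an unadjusted p under 0.05 (4.35% and 13%, against 5.71% and 6.72%). The 3 dim members Grhl1, Marveld3 and Ehf had log2FCs between -0.13 and 0.07. After cyclic loess normalization, the median of all probe sets in the bright bin was 0.00046. That of the 19 bright members was -0.11 there, with 17 of 19 negative. An intensity reflects the probes as well as the transcript, so levels of different genes were not set against each other.

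Among the adhesion molecules, both classical cadherins lay lower in knockout pools, while Epcam differed by less than the spread between pools. Cdh1 encodes E-cadherin, the adhesion molecule of the adherens junction, and had log2 intensities of 9.53, 9.63 and 9.56 in heterozygote replicates 1, 2 and 3 and of 9.51, 9.37 and 9.19 in knockout replicates 1, 2 and 3. The groups did not overlap, but knockout replicate 1 lay just under heterozygote replicate 1, and knockout replicate 3 was the lowest. The log2FC of Cdh1 was -0.22 (SE 0.09, 95% CI -0.42 to -0.02, limma adjusted p = 0.438). Without knockout replicate 3 it was -0.14 and no longer at an unadjusted p under 0.05. Leaving out heterozygote replicate 2, heterozygote replicate 3 or knockout replicate 2 also took Cdh1 out of that range. Cdh3, which encodes P-cadherin, had log2 intensities of 8.27, 8.58 and 8.51 in heterozygotes and of 8.26, 8.27 and 8.16 in knockouts. Its heterozygote replicate 1 lay close to the knockout pools, and the log2FC was -0.23 (SE 0.09, adjusted p = 0.432 in limma). Without heterozygote replicate 2 the log2FC of Cdh3 was -0.16 and no longer at an unadjusted p under 0.05. The same loss was seen without heterozygote replicate 3, knockout replicate 1 or knockout replicate 3. Epcam, an adhesion molecule of many epithelia, was at 8.70 ± 0.05 (SD, n = 3) in heterozygotes and 8.65 ± 0.06 (SD, n = 3) in knockouts, with a 95% CI of the difference from -0.19 to 0.09.

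Esrp1 and Esrp2 direct epithelial patterns of alternative splicing. Esrp1 had log2 intensities of 8.30, 8.25 and 8.24 in heterozygotes and of 8.11, 8.02 and 8.03 in knockouts, so that the groups were apart and close within themselves. Its log2FC was -0.21 (SE 0.05, 95% CI -0.33 to -0.08, limma adjusted p = 0.391). It stayed between -0.24 and -0.16 under every alternative tried, with an unadjusted p under 0.05 under each. Esrp2, whose probe set was in the middle bin, overlapped between the groups and had a log2FC of -0.14 with a 95% CI from -0.32 to 0.03.

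The 8 transcription factors all had probe sets in the middle or dim bin, where the members as a whole had medians near 0. None of the 8 factors had an unadjusted p under 0.05 in limma, where 4.66% of all probe sets were lower and 5.97% higher. Of the 8, 3 had a negative log2FC, and the median was 0.027. Grhl2, an activator of Cdh1 and of other junction genes, had log2 intensities of 7.63, 7.52 and 7.49 in heterozygotes and of 7.57, 7.31 and 7.24 in knockouts. The groups overlapped through knockout replicate 1, and the log2FC was -0.17 with a 95% CI from -0.38 to 0.04 (limma adjusted p = 0.543). Grhl3 was at 6.99 ± 0.05 (SD, n = 3) and 7.04 ± 0.08 (SD, n = 3) in heterozygotes and knockouts, and its interval ran from -0.09 to 0.19. Trp63, the regulator of stratified epithelia, had a log2FC of -0.08 and an interval from -0.24 to 0.08. Ovol1 and Ovol2, which repress mesenchymal genes, were at 0.02 and 0.03, and the ETS factors Elf3 and Ehf at 0.03 and -0.13, all with intervals that included 0.

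Among the 6 keratins, Krt18 lay lower and Krt14 higher at an unadjusted p under 0.05, against 4.66% and 5.97% of all probe sets. The other 4 keratins overlapped between the groups. Krt18, which pairs with Krt8 in simple epithelia, had log2 intensities of 11.47, 11.53 and 11.57 in heterozygotes and of 11.36, 11.41 and 11.20 in knockouts. All 3 knockout pools were below the heterozygote pools, and the log2FC was -0.20 (SE 0.07, limma adjusted p = 0.416). Krt8 had a log2FC of -0.12 with overlapping groups and an interval from -0.28 to 0.04. Krt7, another keratin of simple epithelia, was at 7.46, 7.35 and 7.40 in heterozygotes and at 7.08, 7.45 and 7.14 in knockouts, where replicate 2 stood within the heterozygote range. Krt19 reached 8.63 in knockout replicate 2, above its range of 8.17 to 8.30 over the other 5 pools, so that 1 pool set its positive log2FC of 0.07. Krt14, a keratin of basal keratinocytes, had log2 intensities of 5.48, 5.66 and 5.49 in heterozygotes and of 5.77, 5.76 and 5.70 in knockouts. The log2FC was 0.20 (SE 0.07, limma adjusted p = 0.413). After quantile normalization, or without heterozygote replicate 1 or 3, Krt14 no longer had an unadjusted p under 0.05. Its partner Krt5 did not follow it, with 5.72 ± 0.13 (SD, n = 3) in heterozygotes against 5.74 ± 0.13 (SD, n = 3) in knockouts. The probe sets of Krt5, Krt14 and Trp63, which define the basal layer of stratified epithelium, were in the middle bin, and those of Krt8, Krt18, Cdh1 and Epcam in the bright bin.

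**Figure D2:**
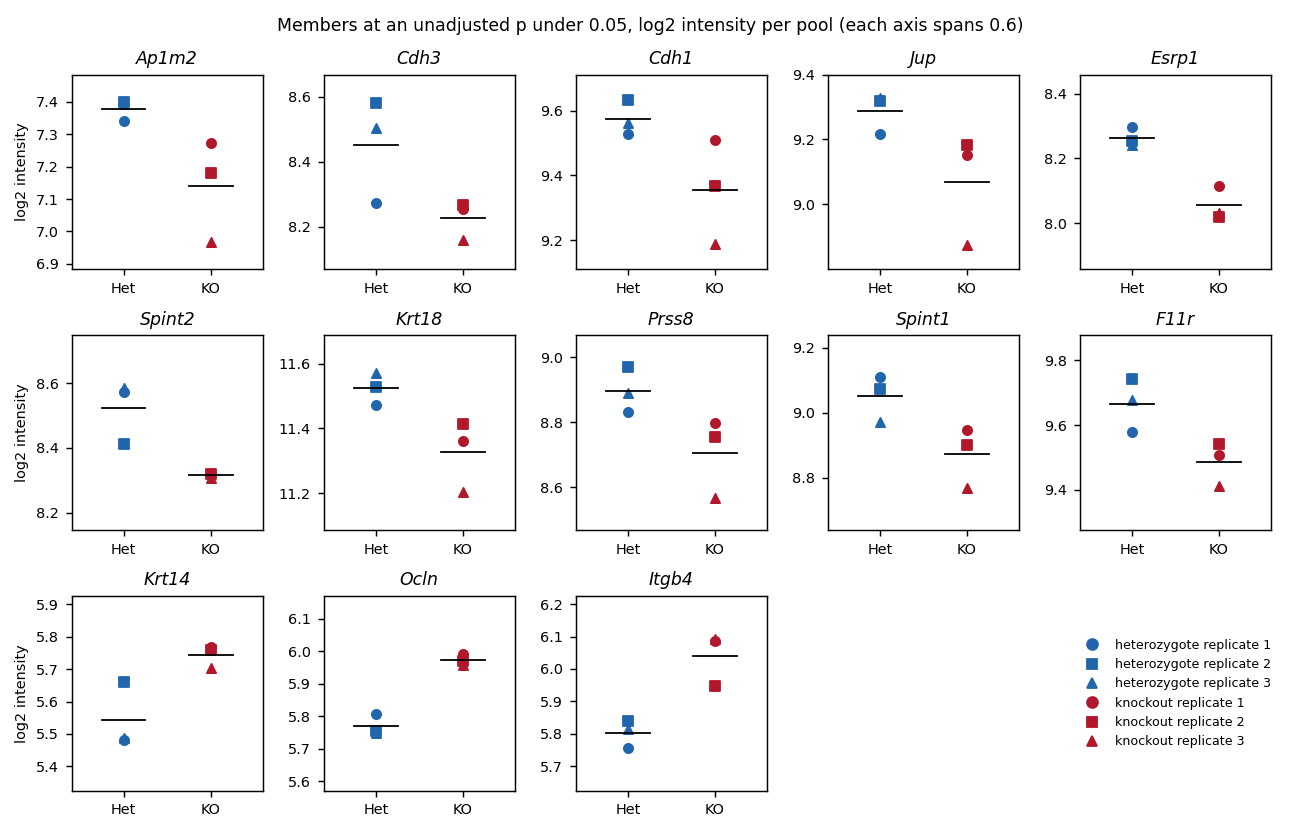
Log2 intensity per pool of the 13 members with an unadjusted p under 0.05, with blue for heterozygote and red for knockout pools, a symbol for each replicate number, black lines for the group means and axes that each span 0.6. The groups do not overlap in any of the 13, and knockout replicate 3 (red triangle) lies lowest in all of the 10 lower members but Esrp1.

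Tight junction and apical genes split between lower, higher and level members. Of 11, F11r was lower and Ocln higher at an unadjusted p under 0.05, against 4.66% and 5.97% of all probe sets. Of these 11, 7 had a negative log2FC, and the median was -0.030. F11r encodes the junctional adhesion molecule JAM-A and was at 9.58, 9.74 and 9.68 in heterozygotes and 9.51, 9.54 and 9.41 in knockouts (log2FC -0.18, SE 0.07, limma adjusted p = 0.421). Ocln, which encodes the tight junction protein occludin, had the smallest unadjusted p of all members, 0.0044. It was at 5.81, 5.75 and 5.75 in heterozygotes and at 5.99, 5.97 and 5.96 in knockouts, so that the groups were apart and narrow. The log2FC of Ocln was 0.20 (SE 0.05, 95% CI 0.08 to 0.32, limma adjusted p = 0.389). Among the claudins, which form the seal itself, Cldn7 was lower in every knockout pool at -0.15 (interval -0.31 to 0.01). Cldn6 at -0.07, Cldn3 at 0.06 and Cldn4 at 0.06 overlapped between the groups. Marveld2 (tricellulin) and Lsr, both of tricellular junctions, the scaffold Tjp3, the polarity gene Crb3 and the occludin relative Marveld3 had log2FCs from -0.08 to 0.02, each with an interval that included 0.

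Desmosome genes had a median log2FC of -0.060 over 7 members. Jup encodes plakoglobin, which also binds cadherins in adherens junctions, and was at 9.22, 9.32 and 9.33 in heterozygotes and at 9.15, 9.18 and 8.87 in knockouts. Knockout replicate 3 stood far below the other knockout pools, and the log2FC of -0.22 (SE 0.09, limma adjusted p = 0.455) became -0.12 without that pool. The desmosomal plaque genes Dsp and Pkp2 and the desmosomal cadherins Dsg2 and Dsc2 were also lowest in knockout replicate 3, with log2FCs between -0.11 and -0.05 and overlapping groups. For Dsg2 and Dsc2 the sign turned without that pool, to 0.01 and 0.02. Pkp3, another plakophilin, lay higher in every knockout pool, at 6.46, 6.48 and 6.58 against 6.45, 6.32 and 6.32 in heterozygotes (log2FC 0.15, limma unadjusted p = 0.0505). Perp, a desmosomal membrane protein regulated by Trp63, had a log2FC of 0.06 with an interval from -0.14 to 0.26.

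Itgb4 and Itga6 encode the integrin pair of the hemidesmosome, which anchors the sheet to its basement membrane, and Itgb4 had the largest positive log2FC of the 45 members. Its log2 intensities were 5.76, 5.84 and 5.82 in heterozygotes and 6.09, 5.95 and 6.09 in knockouts. The groups were apart, and the log2FC was 0.24 (SE 0.06, 95% CI 0.09 to 0.38, limma adjusted p = 0.391). Itga6, which also pairs with another beta chain and is found outside the epidermis, had a log2FC of 0.04 and overlapping groups.

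Of the membrane-bound serine proteases and their inhibitors, 3 of 4 were lower at an unadjusted p under 0.05, against 4.66% of all probe sets. In the bright bin, where these 3 were, 6.71% of all probe sets were lower. Spint2, an inhibitor of matriptase and prostasin, was at 8.57, 8.41 and 8.59 in heterozygotes and at 8.32, 8.32 and 8.31 in knockouts. The 3 knockout pools were nearly equal, and the log2FC was -0.21 (SE 0.06, 95% CI -0.35 to -0.06, limma adjusted p = 0.400). The related inhibitor Spint1 was at -0.18 and the protease Prss8 (prostasin) at -0.19, both with non-overlapping groups and adjusted p-values in limma of 0.437 and 0.442. Without knockout replicate 3, Prss8 was at -0.12 and no longer at an unadjusted p under 0.05. It was also not under that threshold without heterozygote replicate 2 or heterozygote replicate 3. St14, which encodes matriptase itself, had a log2FC of -0.06 with an interval from -0.26 to 0.14. The sorting genes went the same way. Ap1m2, a subunit of the clathrin adaptor for basolateral sorting, was at 7.34, 7.40 and 7.39 in heterozygotes and at 7.27, 7.18 and 6.97 in knockouts, the largest negative log2FC of the members (-0.24, SE 0.08, limma adjusted p = 0.414), and without knockout replicate 3 it was -0.15. Rab25, a GTPase of epithelial recycling endosomes, lay lower in every knockout pool at -0.13, with an interval from -0.26 to 0.01.

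**Figure D3:**
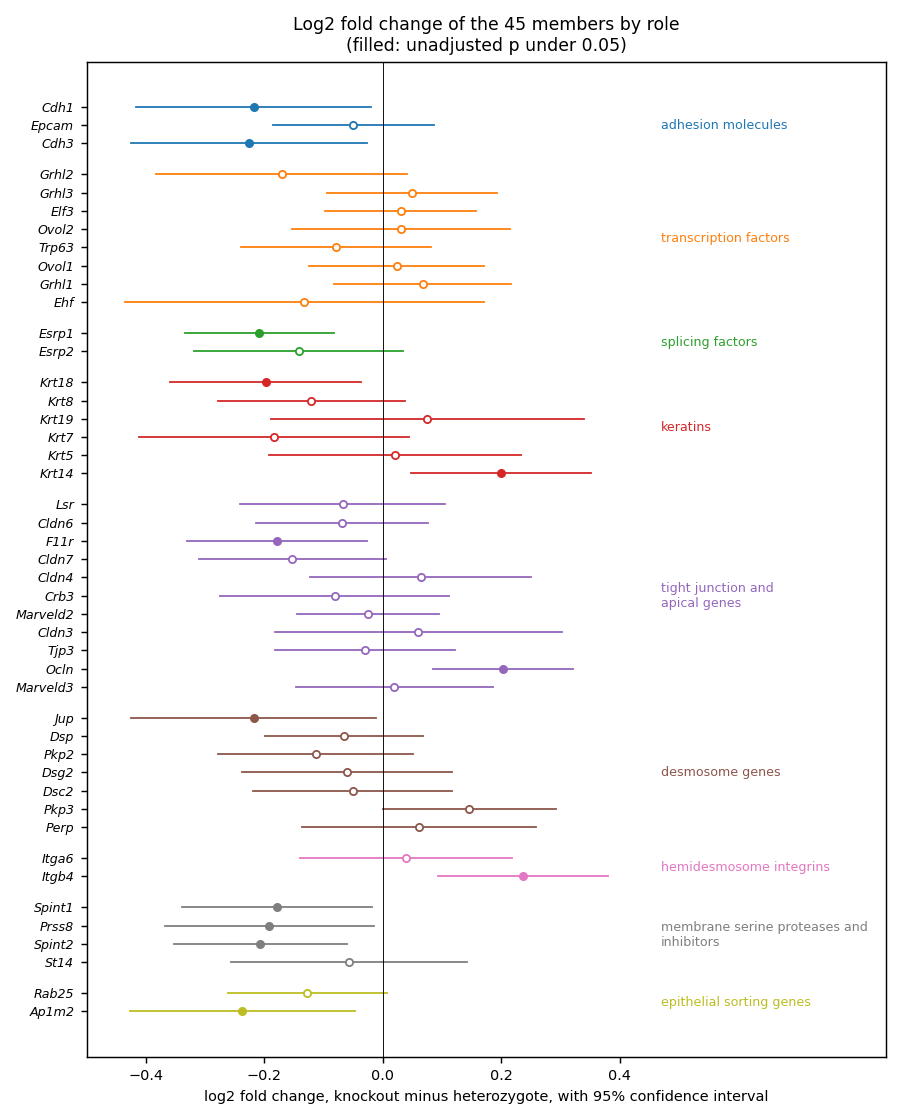
Change of the 45 members on the log2 scale (knockout minus heterozygote, points) with 95% confidence intervals (lines), grouped by role and colored by group, with filled points at an unadjusted p under 0.05. All points lie between -0.24 and 0.24, the filled points of the cadherins, proteases and sorting genes lie below 0, and Krt14, Ocln and Itgb4 lie above 0.

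Whether the epithelial genes moved together was then examined pool by pool, and a common movement was seen in the bright members and not in the list as a whole. Pearson correlations were taken between members over the 6 pools, as a description, since the pools share a genotype difference. Over all 990 pairs of members the median was 0.086, against 0.0022 over all pairs of probe sets, and 56.2% of the pairs were positive, against 50.2%. Among the 19 bright members the median over 171 pairs was 0.60, against 0.096 for all pairs of probe sets in the bright bin. The other 26 members had a median of -0.011 over 325 pairs. The 29 members above the median intensity of all probe sets, which include the 19, had a median of 0.50. The common movement thus did not stop at the edge of the bright bin. When each value was taken as a deviation from its genotype mean, so that the difference between genotypes was removed, the median among the 19 bright members was 0.25, against 0.030 for all bright probe sets. With the genotype difference left in, the median of the 19 bright members was 0.40 after cyclic loess, against -0.00095. Over the 5 pools without knockout replicate 3, also with that difference left in, it was 0.39, against 0.067.

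The 6 pools did not contribute equally to this. Relative to the mean of each gene over 6 pools, the 19 bright members had a median deviation of 0.048, 0.073 and 0.089 in heterozygote replicates 1, 2 and 3, and of -0.035, -0.048 and -0.139 in knockout replicates 1, 2 and 3. All bright probe sets of the array lay between -0.029 and 0.026 in these pools. In knockout replicate 3, 1 of the 19 bright members (Lsr) was above its mean, against 14 or 15 in each heterozygote pool and 4 and 6 in knockout replicates 1 and 2. Of the 45 members, 19 had their lowest value in knockout replicate 3 (42.2%, against 20.6% of all probe sets), as did 13 of the 19 bright ones (68.4%, against 30.8% of bright probe sets). Members that followed the rest most closely over the 6 pools were Jup, Krt18 and Dsp, with a correlation to the median deviation of the other 44 members of 0.96, 0.95 and 0.92. Those that ran against it were Itgb4 at -0.88, Cldn4 at -0.83 and Pkp3 at -0.81. These are values over 6 pools, given without a test.

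**Figure D4:**
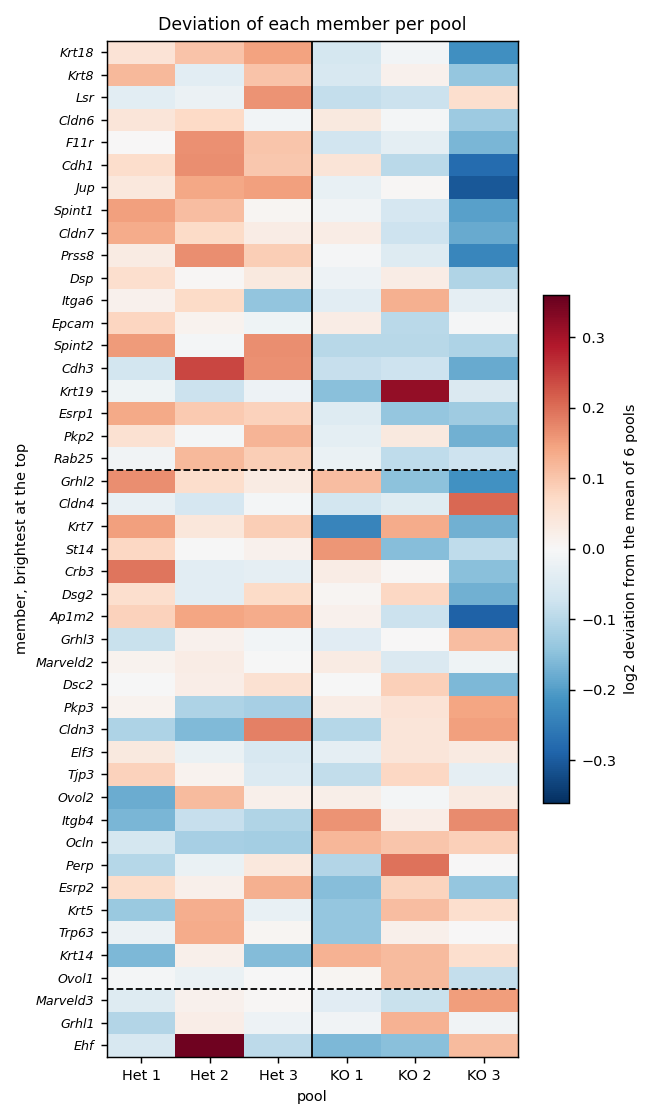
Deviation of each member from its own mean over the 6 pools on the log2 scale (red above, blue below), with members sorted by mean intensity from the top and dashed lines between the bins of intensity. Above the first dashed line the 3 heterozygote columns are mostly red. The knockout replicate 3 column there is blue or near white for all but Lsr. Several members just below that line, such as Grhl2, Krt7 and Ap1m2, have the same colors, while Cldn4 and Grhl3 are red in knockout replicate 3. Farther down no such block is seen.

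Knockout replicate 3 also stood apart in markers of another epithelium. Of 18 measured genes of the visceral endoderm, an extraembryonic epithelium that shares junction genes and simple keratins with the members, all 18 were below their mean in that pool, at a median deviation of -0.79, compared with -0.025 to 0.25 in the other 5 pools. The summed linear intensity of the list ran from 10556 to 12149 in heterozygotes and from 6176 to 11935 in knockouts, with the lowest value in knockout replicate 3. Apom, a lipoprotein component secreted by this tissue, was at 7.35 in knockout replicate 3, below its range of 8.78 to 9.10 elsewhere. Endothelial markers were low in the same pool, at a median deviation of -0.17 over 12 genes. The means of the visceral endoderm markers are themselves lowered by knockout replicate 3. Relative to these means, the markers were at 0.25, -0.025 and 0.18 in heterozygote replicates 1, 2 and 3. In knockout replicates 1 and 2 they were at 0.17 and 0.24, inside the heterozygote range, where the bright members were at -0.035 and -0.048. Without knockout replicate 3, 17 of the 19 bright members still had a negative log2FC, with a median of -0.12 against -0.027 for all bright probe sets. Esrp1, Spint2 and Ap1m2 remained of the 10 lower members at an unadjusted p under 0.05, and Krt14, Ocln and Itgb4 of the 3 higher ones. Without that pool, 3.58% of all probe sets were lower and 4.92% higher. The part of visceral endoderm or endothelial cells in the values of that pool was not tested. In bulk RNA, fewer epithelial cells in a pool and less RNA of these genes per cell cannot be told apart.

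**Figure D5:**
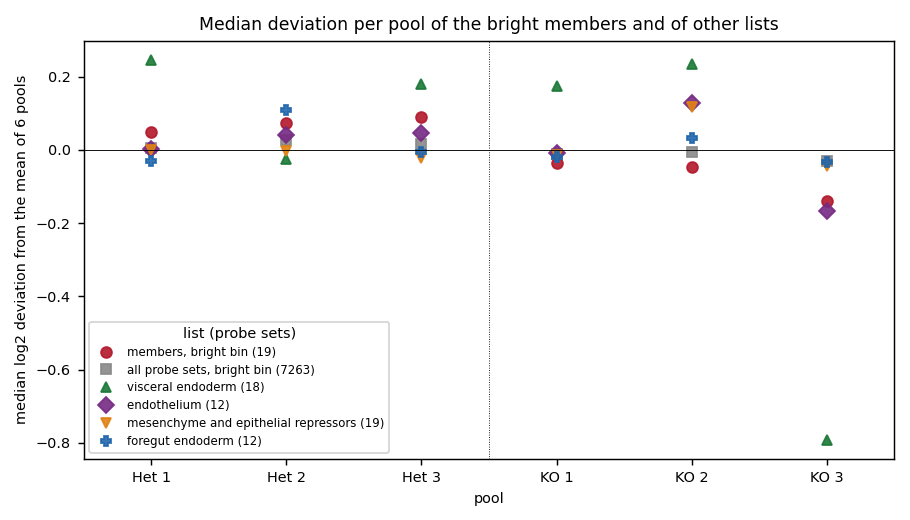
Median log2 deviation per pool from the mean of 6 pools, for the 19 members with bright probe sets, all bright probe sets and markers of other tissues, with the number of probe sets in the legend. The bright members (red circles) lie above 0 in the 3 heterozygote pools and below 0 in the 3 knockout pools. The visceral endoderm markers (green triangles) fall to -0.79 in knockout replicate 3. In knockout replicates 1 and 2 they lie at 0.17 and 0.24, inside the range of the heterozygote pools.

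Other genes of the same structures had medians near 0 over probe sets of all intensities, and were not compared with members of like intensity. Of 31 further junction and polarity genes, 29 were measured, with a median log2FC of -0.015. At an unadjusted p under 0.05, Pvrl2 was lower and Evpl, Cldn23 and Myh14 were higher, against 4.66% and 5.97% of all probe sets. The desmosomal linker Evpl was at 0.17 and Cldn23 at 0.18, while the nectin gene Pvrl2 was at -0.14. Cldn2 was at -0.16 through knockout replicate 3 alone, at 5.04, since knockout replicates 1 and 2, at 5.89 and 6.01, lay above all heterozygote pools. Llgl2 was at -0.14 with overlapping groups. Of 16 measured regulators of the surface ectoderm outside the list, 12 had a negative log2FC, with a median of -0.037. Over all probe sets 50.3% were negative, and 70.2% in the bright bin. At an unadjusted p under 0.05, 1 of the 16 was lower (Gata3) and 1 higher (Tfap2b), against 4.66% and 5.97% of all probe sets. Gata3, a factor of the surface ectoderm and its placodes, was at 7.93, 7.88 and 7.88 in heterozygotes and at 7.63, 7.57 and 7.61 in knockouts, with groups well apart and a log2FC of -0.30 (SE 0.05, limma adjusted p = 0.356). Tfap2b, which is also a neural crest factor, lay in the opposite direction at 0.29. Dlx3, a factor of the surface ectoderm and placodes, was at -0.16 and Frem2, a gene of the epidermal basement membrane, at 0.09, both with overlapping groups.

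Genes that oppose the epithelial state also had a median near 0. Of 19 genes of mesenchyme and of epithelial repressors, 1 was higher and none lower at an unadjusted p under 0.05 in limma. Over all probe sets, 5.97% were higher and 4.66% lower. The median log2FC of the 19 genes was -0.017. The E-box factors Snai1, Snai2, Zeb1 and Zeb2 were at -0.12, -0.11, 0.07 and 0.00 (0.003 for Zeb2), with intervals that included 0. Cdh11 at 0.12 and the collagen gene Col1a2 at 0.19 were the highest of that list. The neural plate, which makes up much of the head at this stage, was represented by 14 measured genes with a median of 0.018. At an unadjusted p under 0.05, 4 of the 14 were higher in knockouts (Fabp7 at 0.35, Hes5 at 0.23, Zic1 at 0.21 and Sox1 at 0.20) and 1 was lower (Six3 at -0.17), against 5.97% and 4.66% of all probe sets. Otx2, a factor of the forebrain and midbrain, was at -0.08. The part of neural tissue in the values of the members was not tested. Genes of the foregut endoderm, which also carries epithelial junctions, had a median of -0.016 over 12 genes. Cer1 at -0.70 and Cpm at -0.25 were the lowest, and Nepn at 0.12 and Nkx2-3 at 0.09 the highest. Cer1 and Cpm were lower at an unadjusted p under 0.05, 2 of the 12, and none was higher, against 4.66% and 5.97% of all probe sets. The trophoblast and endothelium lists had medians of 0.048 and -0.044. The 11 heart genes had a median of -0.080. At an unadjusted p under 0.05, 3 of the 11 were lower (Tbx5 at -0.30, Hand2 at -0.24 and Gata4 at -0.22). None was higher, and over all probe sets 4.66% were lower and 5.97% higher. The share of lower heart genes was close to the 22.2% of the 45 members. Most heart probe sets were in the bright bin, where 47.4% of the members and 6.71% of all probe sets were lower. Nppa at 0.34 and Myh6 at 0.11 were the highest heart genes, with intervals that included 0. Of 9 primitive blood genes, with a median of 0.12, Hba-x at 1.57 and Hbb-bh1 at 1.66 were the highest, and both embryonic globins were highest in knockout replicate 2, the pool in which Krt19 was highest. The summed linear intensity of that list was 2042 in knockout replicate 2 and ran from 474 to 736 in the other pools, and its part in the value of Krt19 was not tested. By limma, the smallest adjusted p over the 147 genes measured on these lists was 0.356.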

How the data were processed

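By the submitters' notes, RMA was run by the authors in Affymetrix Power Tools (version not stated there). They deposited 1 intensity per probe set and array. Values were read as linear from their size, since array medians ran from 58.1 to 62.9. RMA normalizes arrays to a common distribution and can hide a change shared by most genes. Groups and replicate numbers came from the sample titles. Log2 was taken, and the 21789 of 35556 rows whose platform annotation names 1 gene symbol only entered limma 3.58.1 under R 4.3.3 (lmFit, then eBayes) with no covariates, knockout minus heterozygote. The 3 intensity bins used the mean log2 value over the 6 arrays. The number of arrays limits the precision. For 3 pools against 3, the smallest p of an exact permutation test is 0.1, so none was run. The fit was tested on simulated data.

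Named genes were the 45 members, Jarid1b, and the 2 highest and 2 lowest genes of each of 10 other lists (155 genes, 147 measured). Not all of these are printed: the trophoblast and endothelium lists have medians only, and Apom, its lowest gene, stands for the visceral endoderm. The lowest genes of the primitive blood list are also left out. Zeb1, Zeb2, Pvrl2, Myh14, Zic1, Sox1 and Gata4 were named outside this rule, after their values were seen. The members and lists were chosen with earlier results of these data known. For a gene with several probe sets, the highest mean was used. The alternatives were a filter on dim probe sets, the whole table, the mean of a gene's probe sets, a change in the normalization, variance model or array weights, a replicate block, and leaving out each pool. The correlation without knockout replicate 3 was chosen after seeing the data. Promoters and gene names came from RefSeq (GRCm38.p6), and promoter windows were searched over the 250 bases before the start.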

Additional observations from a re-analysis of the deposited data

How the results depend on the processing

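Under every alternative, limma gave no member an adjusted p under 0.05, and Jarid1b stayed under it, at a log2 fold change between -1.60 and -1.48 when single pools were left out. The 10 lower members became 5 after quantile normalization and 5 after cyclic loess, and 3 to 12 when each pool was left out. The share of all probe sets that were lower was 4.13%, 4.26% and 2.84% to 4.94% in these settings. The 3 higher members became 0 without dim probe sets, where all 3 are left out, and 2 to 4 when each pool was left out. The share of all probe sets that were higher was 2.37% and 4.72% to 6.35% there. The median log2 fold change of the members, -0.066, was -0.12 without dim probe sets, -0.036 after quantile normalization, -0.037 after cyclic loess, and -0.090 to -0.029 when each pool was left out. The whole table had 1301 probe sets higher and 1016 lower by unadjusted p. Without dim probe sets 258 were higher, and when each pool was left out the lower count ran from 619 to 1077 and the count at an adjusted p under 0.05 from 1 to 2. The median pairwise correlation of members, 0.086, was 0.50 for members above the median intensity.

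Members close to 0 changed sign in places. After quantile normalization, Krt5 was at -0.022, Marveld2 at 0.0024, Marveld3 at -0.045, Ovol1 at -0.030 and Ovol2 at -0.0038. After cyclic loess, Krt5 was at -0.018, Marveld3 at -0.037 and Ovol1 at -0.027. When each pool was left out, the range was -0.0053 to 0.165 for Cldn3, -0.024 to 0.113 for Cldn4, -0.107 to 0.017 for Dsc2, -0.113 to 0.012 for Dsg2, -0.223 to 0.010 for Ehf, -0.023 to 0.083 for Itga6, -0.064 to 0.169 for Krt19 and -0.041 to 0.096 for Krt5. It was -0.051 to 0.064 for Marveld3, -0.027 to 0.071 for Ovol1, -0.051 to 0.096 for Ovol2, -0.022 to 0.129 for Perp, -0.152 to 0.0054 for St14 and -0.075 to 0.0067 for Tjp3. The cause was not tested.

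With the replicate number as a block, 11 members were lower and 3 higher at an unadjusted p under 0.05. Of all probe sets, 3.95% were lower and 6.06% higher with the block. No adjusted call changed. The labels do not say whether equal numbers pair the samples. Deviations of same-numbered pools correlated at 0.00076, 0.11 and -0.013 across probe sets, and those of differently numbered pools at -0.083 to 0.080. With 3 pools in each group, these values cannot settle whether the pools were paired.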
